A study of Mus musculus with 16 samples.

Results

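The TGF-beta ligands, receptors and latent TGF-beta binding proteins formed a set of 10 genes, taken by symbol from the 54532 genes of the deposited table. They were the ligands Tgfb1, Tgfb2 and Tgfb3, the receptors Tgfbr1, Tgfbr2 and Tgfbr3, and the latent binding proteins Ltbp1, Ltbp2, Ltbp3 and Ltbp4. The genes were chosen by name, with earlier results of these data known. All 10 were expressed highly enough to be tested, with a mean of at least 50 reads per library. RNA of whole iWAT, the inguinal white fat pad that lies under the skin of the groin, was sequenced in 16 libraries from 4 groups of mice, with 4 libraries per group. Has2_TG mice were Apn-Has2 animals that carry Apn-rtTA and TRE-Has2 and overproduce the hyaluronan synthase Has2. The libraries labelled PH20_TG were from Apn-PH20 animals, which are described as carrying Apn-rtTA and TRE-PH20 to overproduce the hyaluronidase PH20, which the gene Spam1 encodes. Has2_WT and PH20_WT were the respective littermate controls, which carry Apn-rtTA and are labelled as wild type. The rtTA factor is made from the adiponectin promoter, so doxycycline switches the TRE transgenes on in adipocytes and not in the other cells of the fat pad. All animals, controls included, were males that entered at 8 to 10 weeks of age, and for 5 days all ate chow containing doxycycline at 200 mg/kg. The study speaks of the libraries as mice, while the labels name no individual animals, so the p-values measure the spread between these libraries.

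TGF-beta is secreted in a latent form: the ligand stays wrapped in its own propeptide, and in most cells the propeptide is linked to a latent TGF-beta binding protein that ties the complex to fibrillin and fibronectin fibres of the extracellular matrix. Released ligand binds TGFBR2, which activates TGFBR1, and the receptor pair phosphorylates SMAD2 and SMAD3, which carry the signal to the nucleus. In adipose tissue this pathway is known for restraining the differentiation of adipocyte progenitors and for driving matrix production in fibrosis.

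Each library held between 14421692 and 26751729 reads on genes. Has2 was at 1.86 to 3.24 FPKM (fragments per kilobase of gene, scaled to a total per library) in Has2_TG and at 0.417 to 0.806 in Has2_WT. Transgene and endogenous reads were not told apart. However, Has2 also reached 3.32 FPKM in PH20_TG1 and 3.26 in PH20_TG4. Spam1 had 0 reads in PH20_TG1, where up to 3 reads could have gone unseen, and 5 to 12 reads in the other PH20_TG libraries. The target genes of PH20_TG1, and the Has2 level of PH20_TG4, thus went against their labels, and PH20_TG names the libraries by label only. PH20 results are also given without this pair, an alternative chosen after seeing the data. The adipocyte markers Adipoq, Plin1, Fabp4 and Pparg were present in every library. Libraries Has2_WT1, Has2_WT2, PH20_WT1 and PH20_WT3 stood apart through B cell markers, whose 8 summed genes were at 118 to 317 FPKM there and at 1.31 to 6.44 in the other libraries. These 4 libraries are all controls, and the counts of members called are also given without them.

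Of the 10 genes, 4 rose in Has2_TG and 0 fell at an unadjusted p-value under 0.05 (limma), where 6.25% of all 12606 genes tested rose and 3.75% fell. They were the ligands Tgfb2 and Tgfb3, the co-receptor Tgfbr3 and the latent binding protein Ltbp1. In whole tissue, more cells of a type and more RNA per cell cannot be told apart. In PH20_TG, 0 of the 10 rose and 0 fell, where 3.2% of 12532 genes tested rose and 3.39% fell. None of the 10 passed the Benjamini-Hochberg adjustment over all genes in either comparison, with smallest adjusted p-values of 0.0776 in the Has2 study and 0.731 in the PH20 study (limma). The median log2 fold change of the 10 genes was 0.39 in Has2_TG, against -0.03 over all genes tested, and 0.13 in PH20_TG, against 0.01. Without Has2_WT1 and Has2_WT2, 2 of the 10 rose (Tgfb2 and Ltbp1), where 5.96% of all genes rose. Without PH20_WT1 and PH20_WT3, 0 rose or fell in PH20_TG, where 4.52% of all genes were called. Without PH20_TG1 and PH20_TG4, 3 were called in PH20_TG, where 13.8% of genes were: Ltbp1 (-1.60) and Tgfbr2 (-0.94) were lower and Ltbp2 (1.14) was higher, with limma adjusted p-values of 0.247 to 0.287. The omitted pair is also the pair with the highest Ltbp1 of PH20_TG, so these values describe the remaining pair.

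The groups of Has2_TG and Has2_WT did not overlap for Ltbp1 and for Tgfb2, where they did not for 6.19% of all genes tested. In the PH20 study the groups overlapped for all 10 genes, where they did not for 4.54% of all genes tested. The proximal promoters of Ltbp1 and Tgfb2 are shown here because these genes had the largest changes, and that of Tgfb1 because it is the most abundant ligand and passed no test. The sequences are from RefSeq on GRCm38.p6 and run 5′ to 3′ on the gene's strand, from 250 bases before to 50 bases after the annotated start. Promoters were found for 8 of the 10 genes, and Tgfb3 and Tgfbr3 had no entry. Capitals mark matches, on either strand, to 6 short motifs: the SMAD-binding core CAGAC, the TATA box TATAAA, the GC box GGGCGG, the cAMP response element TGACGTCA, the E-box CACGTG and the AP-1 site TGACTCA. Positions are counted from the annotated start, and the first base of a match is given.
Ltbp1, upstream start, chr17:75005279-75005578, plus strand: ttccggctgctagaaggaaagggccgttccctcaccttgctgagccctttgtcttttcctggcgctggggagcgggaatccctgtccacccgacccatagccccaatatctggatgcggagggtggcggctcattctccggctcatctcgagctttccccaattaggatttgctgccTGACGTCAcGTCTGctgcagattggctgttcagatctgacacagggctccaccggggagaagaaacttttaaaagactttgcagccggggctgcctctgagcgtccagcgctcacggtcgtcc
Ltbp1, downstream start, chr17:75178531-75178830, plus strand: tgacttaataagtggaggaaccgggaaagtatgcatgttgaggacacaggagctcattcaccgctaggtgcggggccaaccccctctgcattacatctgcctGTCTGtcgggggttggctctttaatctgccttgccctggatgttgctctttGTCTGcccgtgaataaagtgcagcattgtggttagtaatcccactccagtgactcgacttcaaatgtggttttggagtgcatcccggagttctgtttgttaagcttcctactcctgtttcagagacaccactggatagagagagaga
Tgfb2, chr1:186705940-186706239, minus strand: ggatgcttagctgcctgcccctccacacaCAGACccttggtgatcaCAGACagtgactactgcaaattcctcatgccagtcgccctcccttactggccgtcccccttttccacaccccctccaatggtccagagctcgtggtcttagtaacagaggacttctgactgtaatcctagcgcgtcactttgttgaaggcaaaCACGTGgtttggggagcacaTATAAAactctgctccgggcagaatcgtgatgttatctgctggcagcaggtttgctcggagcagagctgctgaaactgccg
Tgfb1, chr7:25686752-25687051, plus strand: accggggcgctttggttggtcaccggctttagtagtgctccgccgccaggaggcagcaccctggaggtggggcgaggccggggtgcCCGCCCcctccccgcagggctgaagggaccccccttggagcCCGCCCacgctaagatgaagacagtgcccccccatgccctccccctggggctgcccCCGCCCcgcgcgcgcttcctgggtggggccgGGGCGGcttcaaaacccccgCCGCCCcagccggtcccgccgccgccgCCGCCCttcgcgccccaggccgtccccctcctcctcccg

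The Tgfb2 window holds a TATA box at -31, an E-box at -51 and the SMAD-binding core at -221 and -204. A TATAAA match is found in 13.6% of 32851 mouse promoters of the same length, CACGTG in 7.15% and CAGAC in 49.6%. The upstream Ltbp1 window holds a cAMP response element at -73, a motif found in 1.79% of promoters, followed by the SMAD-binding core at -64. The downstream Ltbp1 window, which starts the shorter transcripts, holds the core at -148 and -97. The Tgfb1 window is 77% G and C and holds 6 GC boxes and no TATA match, whereas Tgfb2 has 54.3% G and C and no GC box (35.7% of promoters have one). These matches describe the letters only. Reads were counted per gene, so transcripts from the upstream and downstream starts of Ltbp1 were not separated.

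In level, the genes spanned from 82.7 FPKM for Ltbp3 to 0.916 for Tgfb2, as means over the 16 libraries. Between them came Tgfbr2 (25.1), Tgfbr3 (23.8), Ltbp4 (21.7), Tgfb1 (10.9), Ltbp2 (8.41), Tgfb3 (5.18), Ltbp1 (4.90) and Tgfbr1 (4.78). FPKM is scaled to gene length, so these levels can be set side by side. Ltbp3 exceeded Tgfbr2 in 16 of 16 libraries, Ltbp4 exceeded Tgfb1 in 16 of 16, and Tgfbr1 exceeded Tgfb2 in 16 of 16. Neighbours within the middle groups were not separated: Tgfbr2 exceeded Tgfbr3 in 9 of 16 libraries, Tgfbr3 exceeded Ltbp4 in 10, Tgfb3 exceeded Ltbp1 in 9 and Ltbp1 exceeded Tgfbr1 in 7. The spread over libraries also differed, with a highest value 2.02 times the lowest for Tgfbr3, 2.11 times for Tgfbr1, 8.14 times for Ltbp1 and 23.1 times for Tgfb2, whose lowest library had 14 reads.

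**Figure D1:**
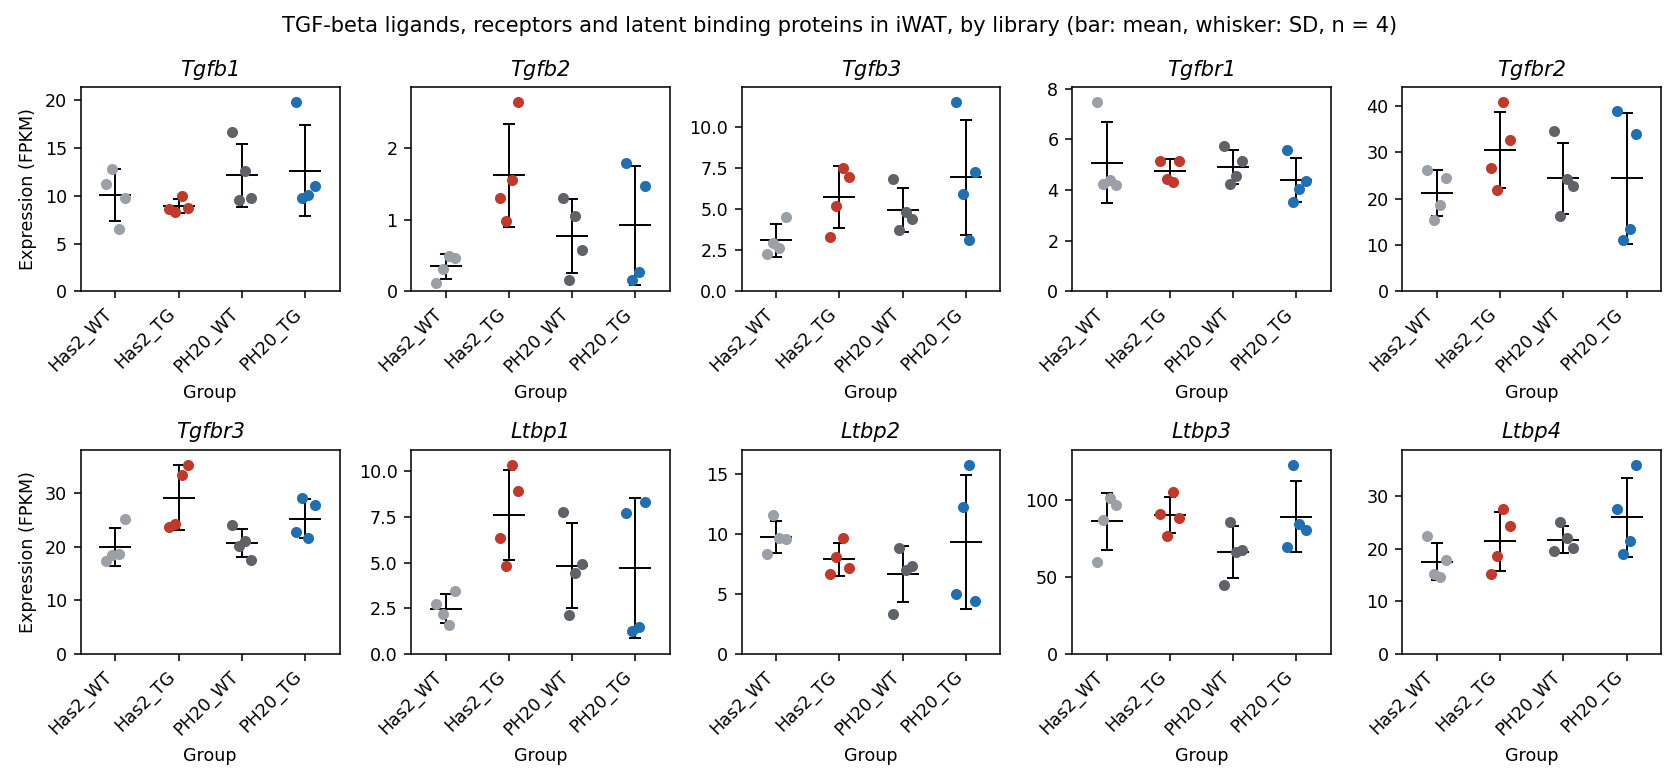
FPKM of each gene in each library, one panel per gene with its own linear axis from 0, with points for the 4 libraries of each group, a bar at the mean and whiskers of 1 SD. The Has2_TG points of Ltbp1 and Tgfb2 lie above all Has2_WT points, and the PH20_TG points of Ltbp1, Tgfb2, Tgfbr2 and Ltbp2 fall into a pair of high and a pair of low libraries.

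Tgfb1 encodes the ligand made by most cell types, including immune cells, and lies on the plus strand of GRCm38 at chr7:25687002-25705077. Its FPKM was 11.2, 12.8, 6.52 and 9.77 in Has2_WT1 to Has2_WT4 and 8.61, 8.33, 10.0 and 8.69 in Has2_TG1 to Has2_TG4. It was 16.6, 9.50, 12.6 and 9.75 in PH20_WT and 19.8, 9.73, 10.1 and 10.97 in PH20_TG. The groups overlapped in both studies, and the highest value of all came from PH20_TG1, whose macrophage markers were also the highest, at 2108 summed FPKM against 257 to 1134 in the other 15 libraries. The log2 fold change was -0.14 (SE 0.21, 95% interval -0.61 to 0.34) in Has2_TG and 0.03 (SE 0.27, interval -0.57 to 0.64) in PH20_TG.

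Tgfb2, on the minus strand at chr1:186622792-186705989, encodes a ligand that needs the co-receptor betaglycan for efficient binding. It was the least expressed of the 10, with 0.114, 0.317, 0.498 and 0.470 FPKM in Has2_WT and 1.30, 0.988, 1.55 and 2.63 in Has2_TG, or 18 to 52 reads against 95 to 319 reads. Every Has2_TG library was above every Has2_WT library. From a mean of 0.350 ± 0.176 FPKM in the controls it rose to 1.62 ± 0.715 (each SD, n = 4), by 1.95 on the log2 scale (SE 0.45, limma adjusted p = 0.108). In the PH20 study Tgfb2 was at 1.30, 0.154, 1.05 and 0.581 FPKM in PH20_WT and at 1.79, 0.156, 0.269 and 1.47 in PH20_TG. Both groups there held libraries near the bottom and near the top of the range. The log2 fold change was 0.00 (SE 0.79) with a 95% interval of -1.78 to 1.78, so that sizeable changes in either direction were not detectable here.

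Tgfb3, on the minus strand at chr12:86056745-86079041, encodes the ligand best known from palate fusion and scar-free repair. It was at 2.26, 2.97, 2.65 and 4.54 FPKM in Has2_WT and at 3.33, 5.199, 7.50 and 6.94 in Has2_TG. Only Has2_TG1 fell within the range of Has2_WT. Tgfb3 rose by 0.85 on the log2 scale (SE 0.30, limma adjusted p = 0.367), and this call was lost without Has2_TG3 (0.70) or Has2_TG4 (0.74). In PH20_WT it was at 6.83, 3.70, 4.84 and 4.41 FPKM and in PH20_TG at 11.5, 5.90, 3.10 and 7.26, with a log2 fold change of 0.37 (SE 0.37). PH20_TG held both the highest and the lowest library of that study.

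Through these changes the make-up of the ligand messages differed between the Has2 groups. Tgfb1 made up 66.1 to 82.5% of the summed ligand FPKM in Has2_WT and 47.6 to 65.0% in Has2_TG, Tgfb2 0.841 to 5.16% and 6.81 to 14.4%, and Tgfb3 16.6 to 30.7% and 25.2 to 39.4%. The ranges did not overlap for Tgfb1 and Tgfb2, but for Tgfb1 the gap was narrow. Its share was 82.5 and 79.6% in Has2_WT1 and Has2_WT2, the Has2 controls with high B cell markers. In Has2_WT3 and Has2_WT4 it was 67.5 and 66.1%, just above the highest Has2_TG library. The shares restate the FPKM values above. In the PH20 study the shares overlapped, with Tgfb1 at 66.1 to 71.1% in PH20_WT and at 55.7 to 74.9% in PH20_TG. The summed FPKM of the ligands was 9.66 to 16.1 in Has2_WT and 13.2 to 19.1 in Has2_TG, ranges that overlapped.

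**Figure D2:**
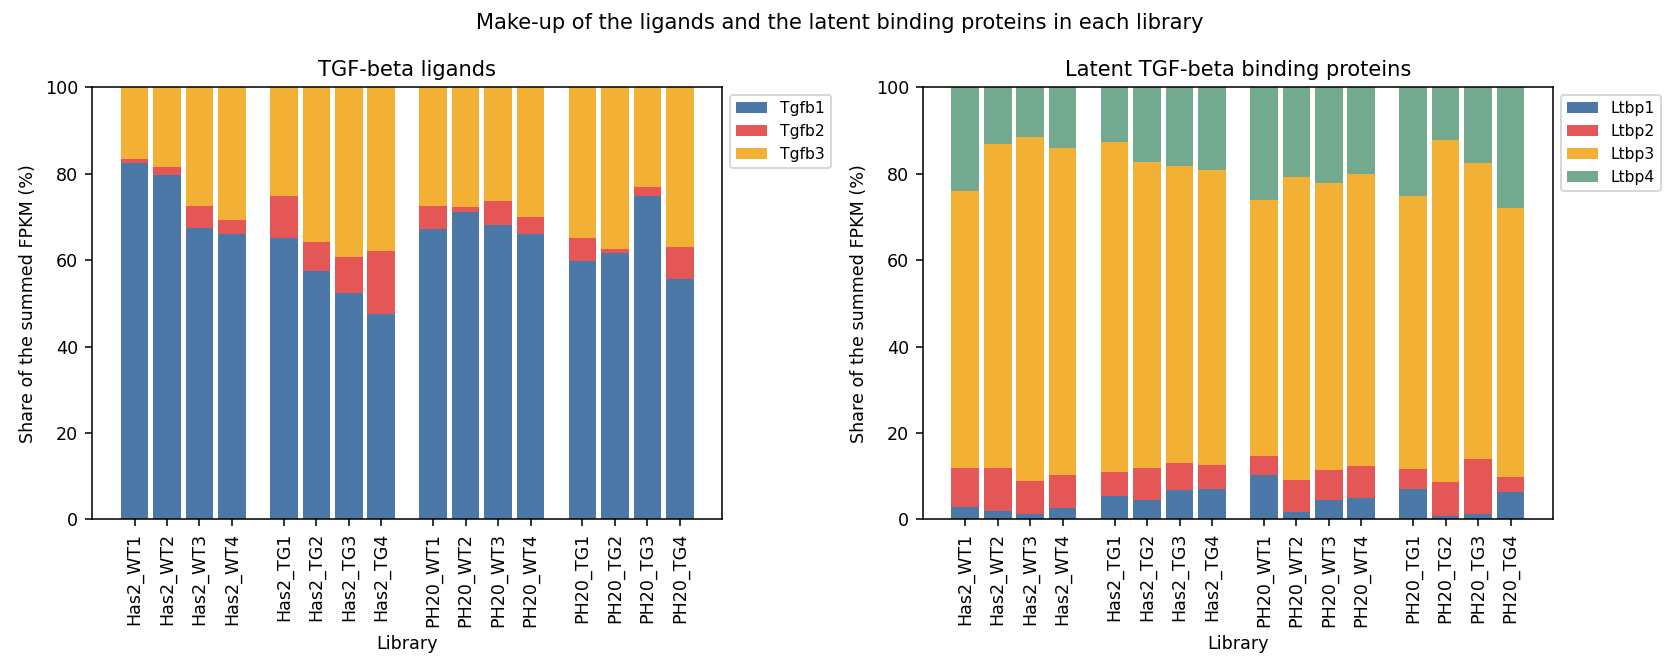
Share in percent of the summed FPKM that each ligand (left) and each latent binding protein (right) took in each of the 16 libraries, as stacked bars from 0 to 100. Tgfb1 is the largest ligand share in every library and Ltbp3 the largest binding protein share, and the Tgfb2 share is 6.81 to 14.4% in Has2_TG and 0.841 to 5.16% in Has2_WT.

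Among the receptors, Tgfbr1 encodes the type I receptor kinase that phosphorylates the SMADs and lies on the plus strand at chr4:47353222-47414931. It was at 7.45, 4.22, 4.40 and 4.21 FPKM in Has2_WT, 5.15, 4.42, 4.32 and 5.15 in Has2_TG, 5.73, 4.23, 4.56 and 5.12 in PH20_WT and 5.58, 3.54, 4.05 and 4.36 in PH20_TG. The groups overlapped in both studies, and Has2_WT1 stood above the rest. The log2 fold change was -0.05 (SE 0.22, interval -0.54 to 0.44) in Has2_TG and -0.17 (SE 0.17, interval -0.57 to 0.23) in PH20_TG.

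Tgfbr2 encodes the ligand-binding type II receptor kinase and lies on the minus strand at chr9:116084293-116175360. Its FPKM was 26.2, 15.4, 18.7 and 24.5 in Has2_WT and 26.7, 21.9, 40.8 and 32.6 in Has2_TG. The log2 fold change of 0.51 (SE 0.23, interval -0.01 to 1.04) missed the threshold narrowly, at an unadjusted limma p of 0.0528. Its FPKM in the PH20 study was 34.6, 16.2, 24.3 and 22.7 in PH20_WT and 39.0, 11.02, 13.5 and 34.0 in PH20_TG. PH20_TG held both the highest library and the lowest pair of that study, and the log2 fold change was -0.16 (SE 0.43).

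Tgfbr3 encodes betaglycan, the membrane proteoglycan that presents ligand to TGFBR2, on the minus strand at chr5:107106570-107289629. It was at 17.4, 18.4, 18.6 and 25.1 FPKM in Has2_WT and at 23.8, 24.3, 33.4 and 35.3 in Has2_TG. Has2_WT4 alone lay within the range of Has2_TG. Tgfbr3 rose by 0.54 on the log2 scale (SE 0.19, limma adjusted p = 0.350), and this call was lost without Has2_TG4 (0.44). The PH20 study had it at 24.1, 20.2, 21.001 and 17.6 FPKM in PH20_WT and at 22.7, 29.0, 21.5 and 27.7 in PH20_TG, with overlapping groups and a log2 fold change of 0.28 (SE 0.15).

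Of the latent binding proteins, Ltbp1 links latent TGF-beta to the matrix and lies on the plus strand at chr17:75005568-75392512, with 37 exon blocks in GENCODE release 21. Its FPKM was 2.72, 2.21, 1.58 and 3.43 in Has2_WT and 6.37, 4.84, 10.3 and 8.90 in Has2_TG. The lowest Has2_TG library was above the highest Has2_WT library. Its log2 fold change of 1.57 was the only one of the 10 with an adjusted p-value under 0.1 (SE 0.30, limma adjusted p = 0.0776), and it stayed between 1.38 and 1.76 when any 1 library was left out. In the PH20 study Ltbp1 was at 7.79, 2.15, 4.42 and 4.93 FPKM in PH20_WT and at 7.69, 1.27, 1.49 and 8.29 in PH20_TG. The PH20_TG libraries split into PH20_TG1 and PH20_TG4 at the top and PH20_TG2 and PH20_TG3 at the bottom, the same pairs as for Has2 (3.32 and 3.26 FPKM against 0.380 and 0.0990), and the log2 fold change of -0.37 had an SE of 0.67.

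Ltbp2 encodes a binding protein of elastic fibres that does not bind latent TGF-beta itself and lies on the minus strand at chr12:84783212-84876532. It was at 8.33, 11.6, 9.64 and 9.55 FPKM in Has2_WT and at 6.64, 8.07, 9.70 and 7.12 in Has2_TG, with a log2 fold change of -0.31 (SE 0.17, interval -0.70 to 0.08). It was called lower only when Has2_TG3 was left out (-0.42). In PH20_WT it was at 3.36, 8.86, 6.98 and 7.36 FPKM and in PH20_TG at 4.98, 12.2, 15.7 and 4.38, with a log2 fold change of 0.36 (SE 0.46). The pairs in PH20_TG were the reverse of those of Ltbp1, with PH20_TG2 and PH20_TG3 high and PH20_TG1 and PH20_TG4 low.

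Ltbp3 encodes a binding protein known for its role in bone and teeth and was the most abundant of the 10, on the plus strand at chr19:5740904-5758532. It was at 59.8, 86.5, 101 and 96.2 FPKM in Has2_WT, 90.9, 76.4, 105 and 87.8 in Has2_TG, 44.8, 85.6, 66.3 and 67.4 in PH20_WT and 69.4, 122, 84.1 and 80.1 in PH20_TG. The lowest values of each study came from Has2_WT1 and PH20_WT1, and the groups overlapped in both. The log2 fold change was 0.09 (SE 0.19) in Has2_TG and 0.43 (SE 0.24, interval -0.10 to 0.97) in PH20_TG. The deposited gene length of Ltbp3 is 5190 bases, while its merged exons in GENCODE release 21 cover 9069, and on that length its mean would be 47.3 FPKM, still the highest of the 10.

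Ltbp4, on the minus strand at chr7:27305136-27337692, encodes a binding protein that carries TGF-beta1 and is needed for elastic fibre assembly. It was at 22.4, 15.3, 14.6 and 17.9 FPKM in Has2_WT and at 15.1, 18.7, 27.6 and 24.4 in Has2_TG, with a log2 fold change of 0.27 (SE 0.22). In PH20_WT it was at 19.6, 25.1, 22.1 and 20.1 FPKM and in PH20_TG at 27.5, 19.1, 21.4 and 35.9, with a log2 fold change of 0.22 (SE 0.20). The groups overlapped in both studies. Within the binding proteins, Ltbp3 kept 59.3 to 79.6% of the summed FPKM in every library, while Ltbp1 took 1.25 to 2.92% in Has2_WT and 4.48 to 6.94% in Has2_TG.

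**Figure D3:**
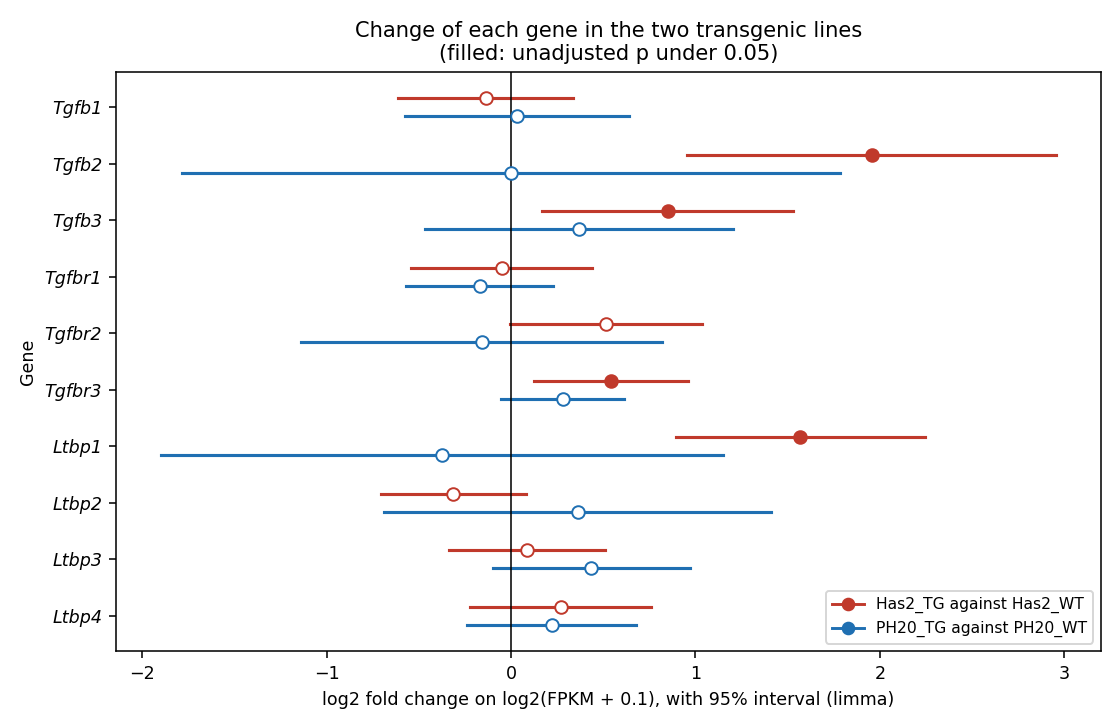
Log2 fold change on the log2(FPKM + 0.1) scale with its 95% interval from limma, for each gene in Has2_TG against Has2_WT (red) and in PH20_TG against PH20_WT (blue), with filled points at an unadjusted p-value under 0.05. Tgfb2, Tgfb3, Tgfbr3 and Ltbp1 are filled in red and no gene is filled in blue, and the blue intervals of Tgfb2 and Ltbp1 are the widest.

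The change differed between the studies for 1 of the 10 genes at an unadjusted p-value under 0.05, where it did for 7.7% of the 12593 genes tested. This was Ltbp1, whose change in Has2_TG exceeded that in PH20_TG by 1.94 on the log2 scale (SE 0.79, interval 0.27 to 3.61, limma adjusted p = 0.613). The call was lost without Has2_WT3 (1.75), Has2_TG3 (1.78), PH20_WT1 (1.67), PH20_TG2 (1.498) or PH20_TG3 (1.57). It was also lost without the 4 lymphocyte-rich controls (1.56), when 0 members were called. Without PH20_TG1 and PH20_TG4 the value was 3.17 and 4 members were called, Tgfb2, Tgfbr2, Ltbp1 and Ltbp2. Both sets of libraries were chosen after seeing the data, and the share of all genes called in these fits was not computed. The difference thus turned on which libraries entered. The difference for Tgfb2 was of the same size but wider, at 1.95 (SE 0.94, limma adjusted p = 0.656). For the other genes it ranged from -0.67 (Ltbp2) to 0.67 (Tgfbr2). Between the controls, Has2_WT against PH20_WT, 0 of the 10 genes were called, where 10.3% of the genes tested were, and 0 without the lymphocyte-rich libraries. Ltbp1 was 0.84 lower on the log2 scale in Has2_WT than in PH20_WT (SE 0.56), Tgfb2 0.80 lower (SE 0.67) and Tgfb3 0.67 lower (SE 0.35).

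In both studies Ltbp1 followed markers of adipocyte progenitors, the fibroblast-like cells of the fat pad that give rise to adipocytes. The 10 markers (Pdgfra, Dpp4, Pi16, Cd34, Ly6a, Cd55, Wnt2, Anxa3, Icam1 and F3) summed to 177, 167, 167 and 302 FPKM in Has2_WT and to 429, 443, 598 and 561 in Has2_TG. Of these, 7 of 10 rose and 0 fell in Has2_TG at the threshold, and the sums did not overlap. By sign 8 were higher and 2 lower, the latter being Icam1 (mean 3.88 FPKM in Has2_WT, 2.45 in Has2_TG) and F3 (20.2 and 14.6). In PH20_TG, 1 of 10 rose (F3) and 0 fell. The sums in the PH20 study were 630, 204, 387 and 433 in PH20_WT and 619, 151, 159 and 653 in PH20_TG. Ranked by Ltbp1, 8 of 8 libraries of the PH20 study stood at the same place as when ranked by these markers, and in the Has2 study 6 of 8 did. Ltbp1 had the most matches of the 10 genes, and the others matched for 0 to 4 of 8 libraries in each study. How often other genes match was not computed.

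Per 100 FPKM of the progenitor markers, Ltbp1 was at 0.951 to 1.54 FPKM in Has2_WT and at 1.09 to 1.73 in Has2_TG, ranges that overlapped. It was at 1.05 to 1.24 in PH20_WT and at 0.840 to 1.27 in PH20_TG. Above all 8 PH20 libraries were 3 of 4 Has2_TG libraries, but also the controls Has2_WT1 (1.54) and Has2_WT2 (1.32). On the same scale Tgfb2 was at 0.0643 to 0.299 in Has2_WT and at 0.223 to 0.470 in Has2_TG, also overlapping. Tgfb3 was at 1.27 to 1.77 and at 0.776 to 1.25, and Tgfbr3 at 8.32 to 11.2 and at 5.48 to 6.29, so that relative to the markers both were lower in Has2_TG, with no overlap. The same held for Tgfb1, Tgfbr1, Tgfbr2, Ltbp2, Ltbp3 and Ltbp4. The marker sums themselves rose without overlap, so a gene that was flat or rose less than the markers came out lower by construction. These ratios therefore do not show a fall of these genes, and the share of all genes that behaved so was not computed. Of the macrophage markers, 6 of 8 rose and 0 fell in Has2_TG, with sums of 318 to 638 FPKM in Has2_WT and 688 to 918 in Has2_TG. The adipocyte markers, with 0 of 8 called, summed to 4751 to 8417 FPKM in Has2_WT and to 6650 to 8061 in Has2_TG. The part of the progenitor and macrophage markers in the changes of Ltbp1, Tgfb2, Tgfb3 and Tgfbr3 was not tested.

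**Figure D4:**
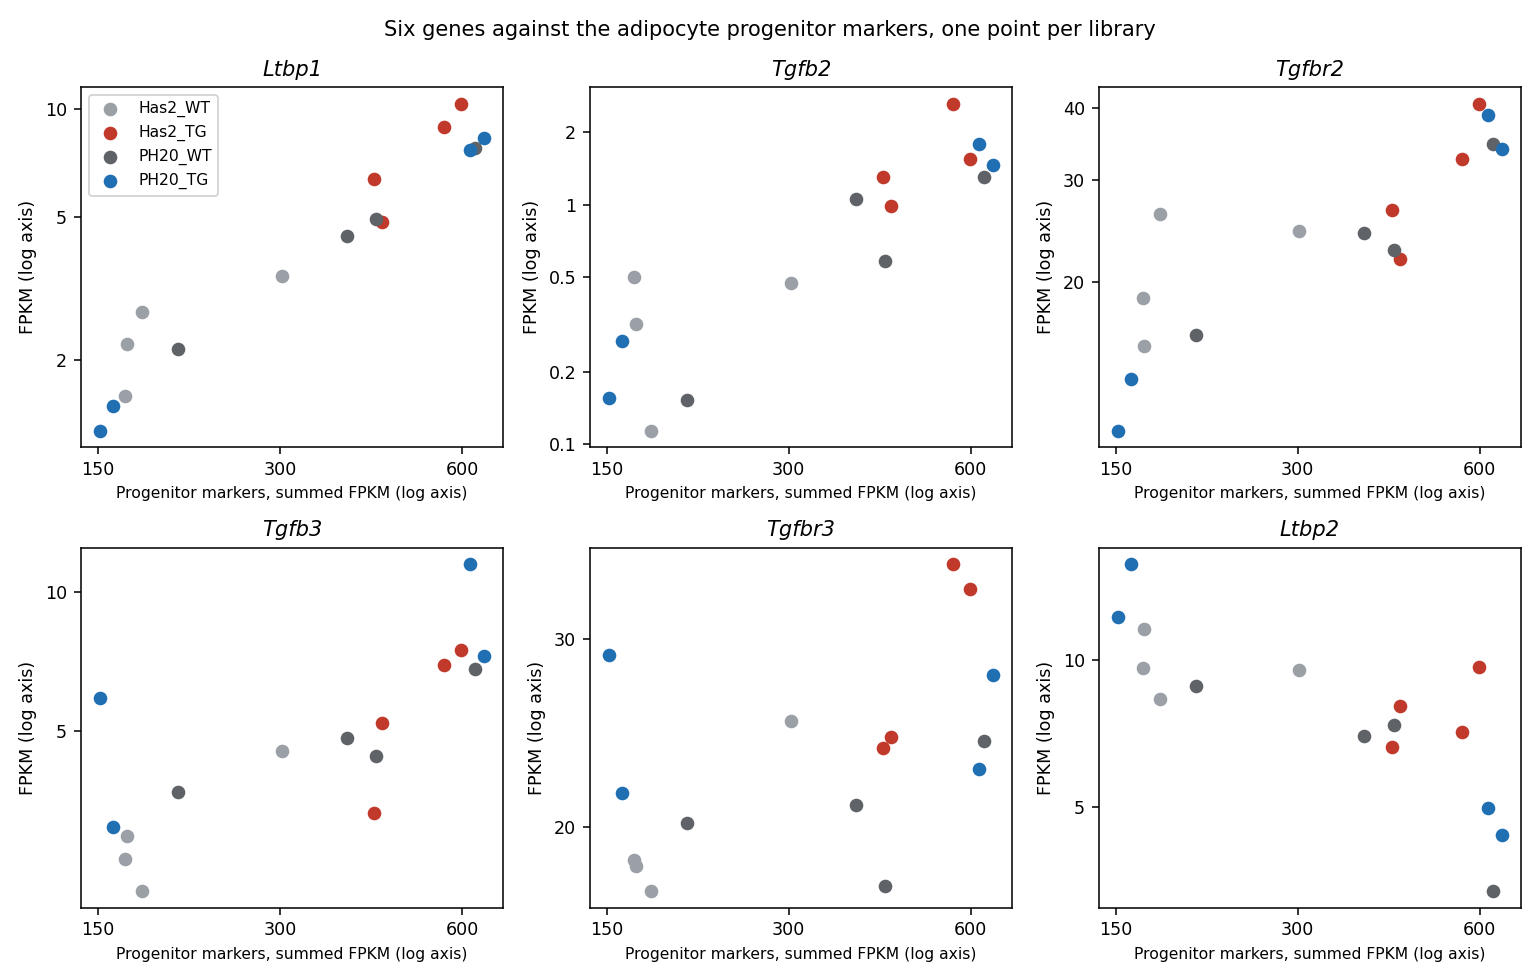
FPKM of 6 of the genes against the summed FPKM of the 10 progenitor markers, both on log axes, with one point per library and a colour per group. Ltbp1 is higher in libraries with higher marker sums, and Ltbp2 is lower. Per unit of marker, 3 of the 4 Has2_TG libraries and the controls Has2_WT1 and Has2_WT2 have more Ltbp1 than all PH20 libraries.

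Other tissue components moved with the PH20 groups. Skeletal muscle markers were at 207 to 864 summed FPKM in PH20_WT and at 9.34 to 245 in PH20_TG, and 7 of 8 fell in PH20_TG. In the Has2 study these markers split the transgenic group, with 344, 722, 7.92 and 10.1 summed FPKM in Has2_TG1 to Has2_TG4. Has2_WT was at 22.1 to 93.4, and 0 of 8 were called. With a skeletal muscle score as a covariate, the PH20 log2 fold change of Ltbp1 was 0.22 (SE 1.11), against -0.37 (SE 0.67) without it. Neither value was called, and with errors this wide the change of sign is not a result. In that fit 1 of the 10 genes was called, Ltbp4 (0.76), where 2.32% of all genes were. In Has2_TG, 5 of the 10 rose with this covariate, where 6.27% of all genes rose. With a B cell score as a covariate, 1 was called in PH20_TG, Tgfbr3 (0.48), where 5.97% of all genes were. In Has2_TG, 2 then rose, Tgfb2 and Ltbp1, where 5.66% of all genes rose, and Tgfb3 was at 0.63 and Tgfbr3 at 0.40, against 0.85 and 0.54 without the covariate. The part of these components in the values of either study was not tested otherwise.

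Genes with the most similar pattern over the 16 libraries, after each group's mean was removed, differed between the members. The values are Pearson correlations among 12297 genes, given as descriptions, since all genes share the same libraries and depth. Tgfbr2 was most alike Cd248 (r = 0.98), Fstl1 (0.97) and Tnxb (0.97), and Ltbp1 was most alike Lgi2 (0.99), Fstl1 (0.98) and Antxr1 (0.98). Tgfbr2 and Ltbp1 themselves correlated at 0.96. Tgfb1 was most alike Cyba (0.94), a subunit of the phagocyte NADPH oxidase, Ifi30 (0.94), a lysosomal reductase of antigen-presenting cells, and Tnfaip8l2 (0.94). For Tgfb2 the closest were Mmp23 (0.93), Ston2 (0.91) and Shc2 (0.91), and for Tgfb3 Anxa1 (0.92), Dapk1 (0.92) and Ifi211 (0.92). Tgfbr1 was closest to Frg1 (0.94), Ythdc1 (0.92) and Cd2ap (0.92), and Tgfbr3 to Tuba1a (0.92), Atp10a (0.87) and Arl10 (0.85). Ltbp2 was closest to Spg7 (0.92), Xpnpep3 (0.87) and Fam126b (0.87), Ltbp3 to Fam8a1 (0.94), Gpt2 (0.94) and Ntrk2 (0.94), and Ltbp4 to Galnt15 (0.90), Slc10a6 (0.89) and Ctgf (0.86). Among the members, Ltbp1 and Ltbp2 ran opposite to each other (r = -0.83), as did Tgfbr1 and Ltbp3 (-0.82).

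Other genes of the pathway were grouped by role. Of the genes that hold TGF-beta latent or release it, such as fibrillin, fibronectin, integrins and proteases, 8 of 18 tested rose and 0 fell in Has2_TG, with a median log2 fold change of 0.51. For this and the next lists, 6.25% of all genes rose in Has2_TG and 3.2% in PH20_TG, and the part of the progenitor and macrophage markers, of which 7 of 10 and 6 of 8 rose in Has2_TG, was not tested. Fbn1, the fibrillin that anchors latent complexes, was at 11.8, 5.79, 6.30 and 17.8 FPKM in Has2_WT and at 29.9, 23.6, 51.8 and 45.4 in Has2_TG, a log2 fold change of 1.93 (SE 0.38, limma adjusted p = 0.0841). Plat, the tissue plasminogen activator, was at 3.24, 1.76, 1.94 and 5.07 FPKM in Has2_WT and at 7.47, 7.51, 15.2 and 10.4 in Has2_TG (log2 fold change 1.78, SE 0.36). Neither gene's groups overlapped. The other genes with the smallest p-values were Bmp1, a protease that cleaves Ltbp1, and Fn1, the fibronectin to which it binds. In PH20_TG, 1 of 19 rose and 0 fell: Lrrc32, the GARP protein that holds latent TGF-beta on the cell surface, with 3.97, 4.57, 4.47 and 3.12 FPKM in PH20_WT and 5.95, 4.88, 4.56 and 6.21 in PH20_TG (log2 fold change 0.42, SE 0.17, limma adjusted p = 0.731). Lrrc32 was called in 4 of 8 fits that left out 1 library. Fn1 split PH20_TG as Ltbp1 did, with 121, 5.07, 3.05 and 115 FPKM.

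Of the co-receptors and receptor regulators, 4 of 9 rose and 0 fell in Has2_TG, and 0 of 9 rose or fell in PH20_TG. They were Vasn, a membrane protein that traps TGF-beta (log2 fold change 1.26, SE 0.25), Cd109, a co-receptor that dampens signalling (1.92, SE 0.53), Acvrl1, the type I receptor of endothelial cells (0.78, SE 0.25), and Dab2, an adaptor between receptors and SMADs (0.93, SE 0.30). Cd109 was low, at 0 to 0.326 FPKM in Has2_WT and 0.646 to 1.16 in Has2_TG. The groups did not overlap for Vasn, Cd109 and Acvrl1 but did for Dab2, and the smallest adjusted p-value of the 4 was 0.0841 (Vasn, limma).

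Of the SMADs and their inhibitors, 0 of 14 rose or fell in each comparison, with median log2 fold changes of -0.01 in Has2_TG and -0.00089 in PH20_TG and smallest adjusted p-values of 0.589 and 0.807 (limma). Smad7, the inhibitory SMAD, had the lowest log2 fold changes among them, -0.47 (SE 0.64) in Has2_TG and -0.30 (SE 0.58) in PH20_TG. Of genes known to be induced by TGF-beta, 5 of 17 rose and 0 fell in Has2_TG. They were the collagens Col1a2, Col1a1 and Col3a1 (1.00, SE 0.27), the matrix protein Postn (0.50, SE 0.21) and, outside the rule for named genes and picked after its value was seen, Tgfb1i1 (0.43). With 1 library left out, Postn was called in 3 of 8 fits and each of these collagens in 8 of 8. The other classic targets in that comparison included Ctgf at 0.48 and Pmepa1 at 0.09, which were not called. In PH20_TG, 3 of 18 rose and 0 fell. Among them were the matricellular Cyr61 and the protease Adam12 (0.65, SE 0.29). The adjusted p-values of these were 0.664 and 0.731 (limma). With 1 library left out, Cyr61 was called in 8 of 8 fits and Adam12 in 3 of 8. The 8 markers of the immediate early response summed to 51.5 to 63.3 FPKM in PH20_WT and to 179, 66.6, 70.7 and 239 in PH20_TG, and their part in these changes was not tested.

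Of the ligands of the related BMP and activin branch, 4 of 8 rose and 0 fell in Has2_TG: Gdf10 (2.03, SE 0.34, limma adjusted p = 0.0639), Bmp7 (1.51, SE 0.46), Bmp4 (1.076, SE 0.35) and Bmp6 (0.61, SE 0.21). Gdf10, a secreted BMP-related factor, was at 2.31, 4.01, 3.24 and 5.10 FPKM in Has2_WT and at 13.5, 8.06, 21.1 and 20.2 in Has2_TG, without overlap. In PH20_TG it was again split, at 13.7, 3.67, 3.85 and 21.9 FPKM. Of the genes listed here as antagonists, not all of them specific to this branch, 5 of 8 rose and 0 fell in Has2_TG. They were Dcn, Fstl1 (1.78, SE 0.37), Chrd (1.31, SE 0.45), Fst (1.07, SE 0.40) and, picked after its value was seen, Chrdl1 (0.60). The BMP and activin receptors had 0 of 7 called. In PH20_TG, 0 of 7 ligands, 0 of 6 receptors and 1 of 7 antagonists were called, the last being Bmper (0.69, SE 0.30). With 1 library left out, Bmper was called in 2 of 8 fits. No gene of these lists passed adjustment over all genes in either study.

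**Figure D5:**
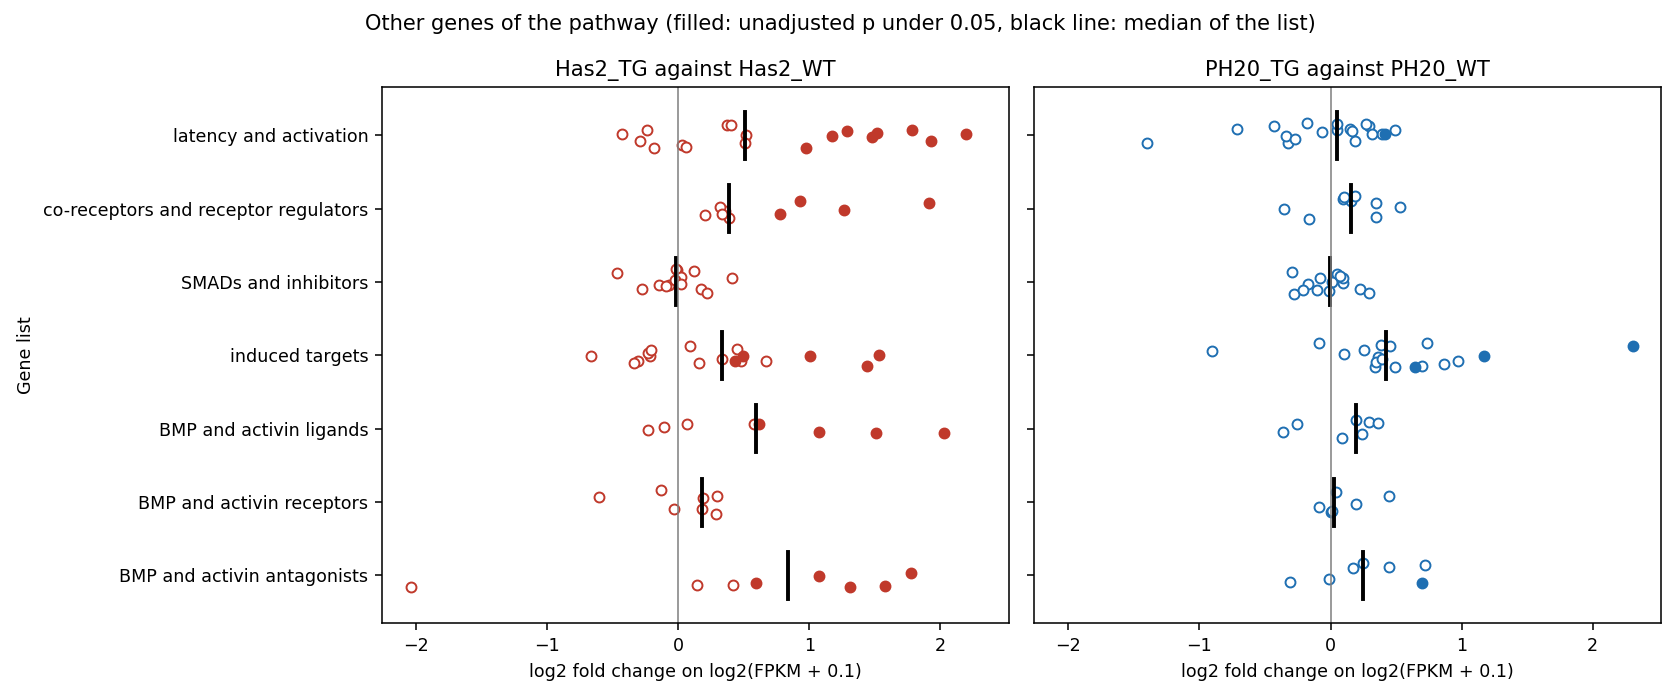
Log2 fold change on the log2(FPKM + 0.1) scale of each tested gene of 7 other lists of the pathway, in Has2_TG against Has2_WT (left) and PH20_TG against PH20_WT (right), with filled points at an unadjusted p-value under 0.05 and a black line at the list's median. Filled points are all to the right of 0, and the SMADs and inhibitors hold none on either side.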

How the data were processed

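RNA from 16 iWAT libraries was sequenced, and the authors aligned reads with STAR 2.7.9a to GRCm38 with GENCODE release 23 and counted them per gene. Whether counting used strand is not given in the sources used here. The deposited values are FPKM, normalized by the authors to gene length and to a total per library. That total was 0.886 to 1.14 times the reads on genes of the library, so it was not the plain sum of these reads. Whole reads were recovered from the FPKM for 100% of values (tolerance 0.01), with 14421692 to 26751729 reads per library.

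The main test was limma 3.58.1 in R 4.3.3, two-sided with a variance trend, on log2(FPKM + 0.1) within each study, keeping genes that averaged 50 reads or more. This scale understates the changes of low genes. Genes were called at an unadjusted p-value under 0.05, the study's own threshold, with Benjamini-Hochberg adjusted values beside it. Intervals are 95%. The difference between studies was an interaction term over all 16 libraries. Figures were drawn in Python 3.11.15 with matplotlib 3.10.9. The fits were tested on simulated data.

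Named genes were all 10 members, Has2 and Spam1, up to 4 genes per other pathway list and comparison with the smallest p-values, and the 3 most alike genes per member. The members and lists were chosen with earlier results of these data known. No libraries were identical or within sampling noise of each other (smallest chi-square per degree of freedom 28.7 over 120 pairs). Alternatives changed the pseudocount, filters, scaling, variance model, block, covariates and libraries. GENCODE release 21 was used for exon lengths. Some items of the gene lists are not reported here.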

Additional observations from a re-analysis of the deposited data

Results flagged for a closer look

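Of 40 sets of 4 libraries examined (10 genes in 4 groups), 3 held a library far from the other 3, where chance gives about 1 in 20. Tgfb1 was at 19.8 FPKM in PH20_TG1, against 9.73 to 10.97 in the other PH20_TG libraries (a gap of 0.876 of the group's range, past Dixon's critical value). Tgfbr1 was at 7.45 FPKM in Has2_WT1, against 4.21 to 4.40 in the other Has2_WT libraries (gap 0.941). Tgfbr3 was at 25.1 FPKM in Has2_WT4, against 17.4 to 18.6 in the other Has2_WT libraries (gap 0.844).

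The log2 change of Ltbp1 was 1.94 larger in the Has2 study than in the PH20 study by an interaction term (SE 0.79, limma adjusted p = 0.613), with 4 of 4 Has2_TG libraries above all their controls and PH20_TG libraries on both sides of theirs. This difference was called for 1 of the 10 genes, where it was for 7.7% of all genes, and the call was lost in 5 of the 16 fits that leave out 1 library.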

How the results depend on the processing

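In Has2_TG, Ltbp1 was called in 11 of 11 alternatives (log2 fold change 1.29 to 1.59) and Tgfb2 in 10 of 10 (0.93 to 2.51), leaving out single libraries aside, where both were called in 8 of 8. Tgfb2 was too low to be tested with the filter of a mean FPKM of at least 1, where 3 members and 9.76% of all genes were called. The 4 members called in Has2_TG became 2 with a B cell score as covariate, where 9.25% of all genes were called. They became 2 without Has2_WT1 and Has2_WT2, an alternative chosen after seeing the data, where 9.59% of all genes were. When 1 library was left out, 2 to 5 were called, where 7.51 to 11.6% of all genes were. Without Has2_TG3 the 4 called were 3 higher and Ltbp2 lower. The 0 members called in PH20_TG became 1 with the replicate block, 1 with the skeletal muscle covariate and 1 with the B cell covariate. Of all genes, 10.4%, 2.32% and 5.97% were called in these fits. With 1 library left out, 0 to 1 members were called, where 4.56 to 9.35% of all genes were. Without PH20_TG1 and PH20_TG4, also chosen after seeing the data, 3 members were called, where 13.8% of all genes were. For the difference between studies the 1 became 2 with the block and 0 without the 4 lymphocyte-rich libraries. It became 4 without PH20_TG1 and PH20_TG4 and 0 to 2 with 1 library left out. Between controls the 0 became 1 with the skeletal muscle covariate and 0 to 1 with 1 library left out. The share of all genes called was not computed for these alternatives of the difference and of the controls. Over all genes, the 826 called in PH20_TG became 1305 with no minimum of reads, 1302 with the block, 291 with the skeletal muscle covariate, 550 without PH20_WT1 and PH20_WT3, 1735 without PH20_TG1 and PH20_TG4 and 569 to 1170 with 1 library left out, and the 1261 in Has2_TG ranged from 949 to 1472 with 1 left out. With the block, 1153 genes and 5 members were called in Has2_TG. Same-numbered libraries correlated at -0.0078, 0.126, -0.176 and 0.011 in the Has2 study and at 0.346, 0.421, -0.033 and -0.042 in the PH20 study, so the numbers were not taken to pair libraries. Signs reversed for members not called in the main comparison. In Has2_TG these were Tgfb1 (0.11), Tgfbr1 (0.14) and Ltbp3 (-0.13) with the B cell covariate, Tgfb1 (0.15), Tgfbr1 (0.14) and Ltbp3 (-0.14) without Has2_WT1 and Has2_WT2, and Tgfbr1 (-0.12 to 0.15) and Ltbp3 (-0.076 to 0.17) with 1 left out. In PH20_TG they were Tgfb2 with voom (-0.34), Tgfb1 (-0.24), Tgfbr2 (0.19) and Ltbp1 (0.22) with the skeletal muscle covariate, Tgfbr2 (0.18), Ltbp1 (0.093) and Ltbp2 (-0.14) with the B cell covariate, Tgfbr2 (0.14), Ltbp1 (0.040) and Ltbp2 (-0.0013) without PH20_WT1 and PH20_WT3, Tgfb1 (-0.25), Tgfb2 (-1.24), Tgfb3 (-0.17) and Ltbp4 (-0.098) without PH20_TG1 and PH20_TG4, and, with 1 left out, Tgfb1 (-0.20 to 0.20), Tgfb2 (-0.50 to 0.50), Tgfbr2 (-0.45 to 0.15) and Ltbp1 (-0.80 to 0.070). For the difference they were Tgfb1 with the skeletal muscle covariate (0.012) and without PH20_TG1 and PH20_TG4 (0.12), Tgfbr3 without the lymphocyte-rich libraries (-0.00102) and, with 1 left out, Tgfb1 (-0.36 to 0.066) and Ltbp4 (-0.084 to 0.22). The cause of these shifts was not tested.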
